A study of Mus musculus with 11 samples.

Results

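Genes used by megakaryocytes and the platelets they shed were compared between mouse T cell leukaemias (T-ALL) that lacked or kept the histone demethylase Utx. The genes were taken by symbol from a list of platelet genes and not by their values, with earlier results of these data known: Pf4, Ppbp, Gp1ba, Gp1bb, Gp5, Gp6, Gp9, Vwf and Treml1. All 9 were found among the 37224 gene rows of the table. In both groups, cKit-positive blood progenitors of C57/BL6 background had received Notch1-IC, the activated intracellular part of Notch1, on a retrovirus and had been transplanted intravenously, and RNA was taken from leukaemia cells of recipient bone marrow or spleen. The knockout group was Utx-/Y and had 5 samples, 2 from bone marrow and 3 from spleen, of which 1 was a repeat run. The wild-type group was Utx+/+ or Utx+/Y and had 6 samples, 2 from bone marrow and 4 from spleen, of which 2 were repeat runs. The sources used here give neither the ages of the mice nor whether cells of the recipients were removed, although the series' design text mentions sorted populations.

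Megakaryocytes are the large marrow and spleen cells that bud off platelets, and their gene products fill the granules or coat the surface of those platelets. At a wound, von Willebrand factor on the vessel wall is caught by the platelet receptor complex GPIb-IX-V, collagen is sensed by glycoprotein VI, and the activated platelet empties its alpha granules, which hold chemokines such as those of Pf4 and Ppbp. In mice the spleen as well as the bone marrow makes platelets, so leukaemia cells taken from either organ can be accompanied by megakaryocytes and platelets.

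Each gene had 1 count per genotype, pooled by the authors, so the spread between animals could not be measured, the differences below have no replicate check, and which samples of a pool gave the counts is not known. Levels are CPM, the count of a gene scaled to 1000000 gene counts in its pool, from 106445530 counts in the knockout pool and 108015222 gene counts in the wild-type pool. A ratio is given as fold or log2 of knockout over wild-type, with an exact 95% interval that covers counting error only and no difference between animals. A gene was called higher or lower if it had a combined count of at least 100, a ratio of at least 2-fold and an interval that left out a ratio of 1. Kdm6a, the gene of Utx, was at 10.5 CPM in the knockout pool and 58.3 CPM in the wild-type pool, counted over the whole gene and not over its deleted part. Xist, which marks cells with an inactive X, was at 0.705 against 203 CPM, so genotype and the sex of the donors cannot be told apart in these pools. T cell genes were abundant, as the leukaemia label states, and 13 of them summed to 3934 CPM in the knockout pool and 4492 CPM in the wild-type pool. Red cell genes summed to 21255 and 10836 CPM over 12 genes, more than the T cell genes in both pools. Most of that came from the globin genes Hbb-b1, at 7856 and 3928 CPM, and Hba-a1, at 7254 and 3001 CPM. Sums over different genes do not compare the amounts of the cells.

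The 250 bases before the start of 4 members are shown because these genes span the range of ratios described below, from the highest to one close to 1. They are RefSeq sequences on the build GRCm38.p6, 5′ to 3′ on the strand of the gene, and promoters of 8 of the 9 members were found in that table. Capitals mark 6-letter matches on either strand to a GATA site (AGATAA, or its variant AGATAG, or TGATAA, or its variant TGATAG) or to an ETS site (AGGAAG, or its variant CGGAAG), the letters read by the GATA and ETS factors of megakaryocytes. Ppbp lies at chr5:90768268-90768517 on the plus strand, Pf4 at chr5:90772185-90772434 on the plus strand, Gp5 at chr16:30310782-30311031 on the minus strand and Gp1ba at chr11:70638872-70639121 on the plus strand.
Ppbp: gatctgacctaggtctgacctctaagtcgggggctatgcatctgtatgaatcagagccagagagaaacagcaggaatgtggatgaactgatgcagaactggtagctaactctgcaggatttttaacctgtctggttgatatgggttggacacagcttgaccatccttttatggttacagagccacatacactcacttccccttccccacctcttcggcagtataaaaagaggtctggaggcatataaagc
Pf4: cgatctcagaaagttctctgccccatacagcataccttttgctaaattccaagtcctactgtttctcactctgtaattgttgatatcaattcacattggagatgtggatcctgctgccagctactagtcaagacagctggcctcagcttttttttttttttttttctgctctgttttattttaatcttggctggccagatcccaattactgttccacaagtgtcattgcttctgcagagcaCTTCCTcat
Gp5: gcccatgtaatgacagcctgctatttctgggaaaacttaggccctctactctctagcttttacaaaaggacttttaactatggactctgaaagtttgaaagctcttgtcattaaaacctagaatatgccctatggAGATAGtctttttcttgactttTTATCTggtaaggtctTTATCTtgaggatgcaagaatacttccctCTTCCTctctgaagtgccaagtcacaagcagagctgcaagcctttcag
Gp1ba: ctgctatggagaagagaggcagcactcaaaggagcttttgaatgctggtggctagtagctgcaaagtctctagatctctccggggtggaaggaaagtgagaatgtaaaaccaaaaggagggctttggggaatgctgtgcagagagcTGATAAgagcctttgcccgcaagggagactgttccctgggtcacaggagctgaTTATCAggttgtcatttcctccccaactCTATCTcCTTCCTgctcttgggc
Ppbp had no match of either kind in this window and Pf4 had 1 ETS match, 9 to 4 bases before the start. Gp5 held 3 GATA matches and 1 ETS match, and Gp1ba also held 3 and 1. Over the 8 members, 4 windows held a GATA match, against 26.5% of 32851 promoters of the same length, and 5 held an ETS match, against 39.2%. Both kinds stood together in 3 members, Gp1ba, Gp1bb and Gp5, and in 9.21% of all promoters. GATA and ETS matches of different kinds did not overlap in the members. Of the ratios described below, Gp5 was called higher and Gp1ba was not, with the same numbers of matches. Pf4 and Ppbp, with larger ratios, held no GATA match. A match is a description of letters and not of binding, and a link between matches and ratios was not tested.

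**Figure D1:**
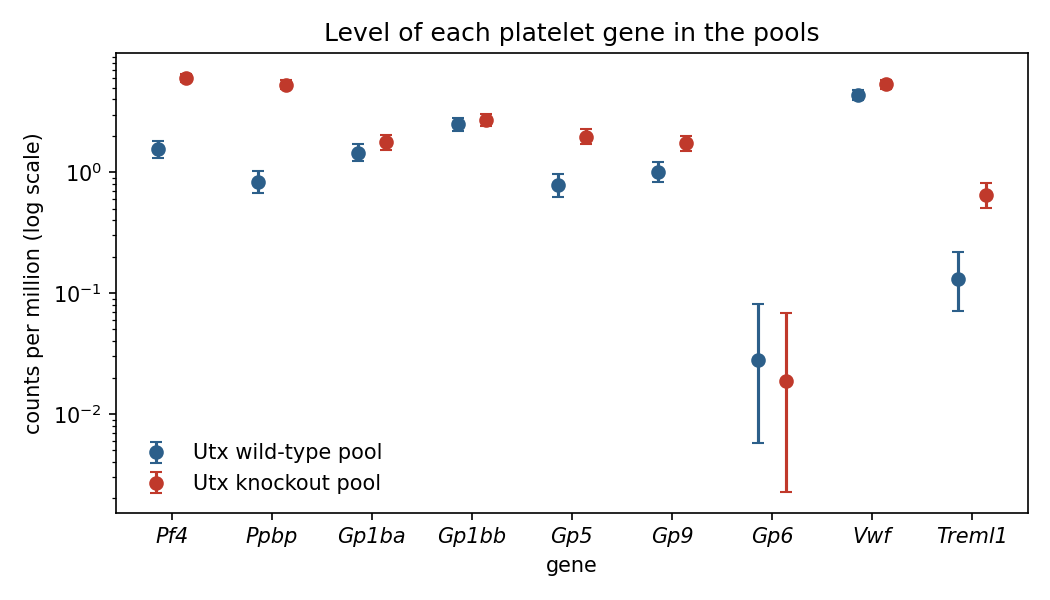
Level of each of the 9 platelet genes in CPM (log scale) in the wild-type pool (blue) and the knockout pool (red), with 1 point per pool and bars for the exact 95% Poisson interval. Pf4, Ppbp, Gp5, Gp9 and Treml1 stand apart between the pools, Gp1ba, Gp1bb and Gp6 overlap, and Vwf is slightly higher in the knockout pool, at 5.33 against 4.35 CPM.

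The granule chemokines differed most among the well-counted members. Ppbp (ENSMUSG00000029372, chromosome 5, 90768518 to 90770063), which encodes the precursor of the neutrophil-attracting chemokine CXCL7, had 565 counts in the knockout pool against 90 in the wild-type pool. This is 5.31 CPM (95% Poisson interval 4.88 to 5.76) against 0.833 CPM (0.670 to 1.02), a 6.34-fold difference (5.09 to 8.05) or a log2 ratio of 2.66. Pf4 (ENSMUSG00000029373, chromosome 5, 90772435 to 90773383), which encodes the heparin-binding chemokine CXCL4, had 641 against 167 counts, or 6.02 CPM (5.56 to 6.51) against 1.55 CPM (1.32 to 1.80). Its ratio was 3.89-fold (3.28 to 4.65), a log2 ratio of 1.96. The intervals of the chemokine ratios did not overlap, and the makeup of the pair also differed, since Ppbp gave 46.8% (exact binomial interval 44.0 to 49.7) of their joint counts in the knockout pool and 35.0% (29.2 to 41.2) in the wild-type pool. All coordinates of genes are GRCm38 coordinates of the GENCODE M21 annotation, which is not the build the authors aligned to.

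Ppbp and Pf4 are neighbours, with starts 3.917 kb apart on the same strand, and other CXC chemokine genes lie in the same cluster. Cxcl5, a neutrophil chemokine gene whose start is 13.075 kb before that of Pf4, had 58 counts in the knockout pool against 0 in the wild-type pool. Set against the 3 counts that a count of 0 allows in that pool, its counted level was 19.6-fold higher, and the exact interval of the ratio, which holds the counting error of both pools, began at 15.5-fold. Cxcl3, with a start 13.668 kb after that of Pf4, had 22 against 0 counts, a level 7.44-fold above the same floor, with an exact interval that began at 5.56-fold. Cxcl2 had 6 and 7 counts, and Cxcl1 and Cxcl15 had none in either pool, a level under 0.0282 CPM in the knockout pool and 0.0278 CPM in the wild-type pool. Counts in the knockout pool only were thus seen for Cxcl5 and Cxcl3 but not for the whole cluster, and none of the 5 neighbours reached the 100 counts needed for a call.

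The 4 subunit genes of the GPIb-IX-V complex, the receptor for von Willebrand factor, did not share 1 ratio. Gp5 (ENSMUSG00000047953, chromosome 16, 30307685 to 30310779), the thrombin-cleaved subunit, had 210 against 85 counts, or 1.97 CPM (1.72 to 2.26) against 0.787 CPM (0.629 to 0.973). Its ratio of 2.50-fold (1.94 to 3.26) was called higher, with an interval that reached just under 2-fold. Gp9 (ENSMUSG00000030054, chromosome 6, 87778072 to 87779768), a small subunit needed for the complex to reach the surface, had 185 against 109 counts, or 1.74 CPM (1.497 to 2.01) against 1.01 CPM (0.829 to 1.22). Its ratio of 1.72-fold (1.35 to 2.20) lay above no difference and below the 2-fold minimum. These subunits stood apart between the pools by more than counting error.

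Gp1ba (ENSMUSG00000050675, chromosome 11, 70639122 to 70642036), the chain that binds von Willebrand factor, had 188 against 157 counts, or 1.77 CPM (1.52 to 2.04) against 1.45 CPM (1.24 to 1.70). Its ratio of 1.21-fold had an interval of 0.978 to 1.51 that held no difference, but under 4 of the 5 other scalings described below the interval lay above it, as with TMM, a trimmed mean of the ratios of all genes (1.28-fold, 1.03 to 1.60). Gp1bb (ENSMUSG00000050761, chromosome 16, 18620317 to 18622403), which is joined to Gp1ba's product by disulfide bonds, had 287 against 270 counts, or 2.70 CPM (2.39 to 3.03) against 2.50 CPM (2.21 to 2.82), a ratio of 1.08-fold (0.910 to 1.28). In the annotation Sept5, a septin gene on the same strand, covers 91.1% of the 2087 exon bases of Gp1bb, and over that stretch a read cannot be assigned to either gene. Sept5 itself had 407 against 356 counts, or 3.82 against 3.30 CPM, and its log2 ratio was 0.21 (0.01 to 0.42). The part of Sept5 reads in the value of Gp1bb was not tested.

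Summed over its 4 genes, the receptor complex had 870 knockout counts and 621 wild-type counts, a 1.42-fold difference (1.28 to 1.58). Gp1bb gave 287 and 270 of these counts, so this sum and the shares that follow may also hold Sept5 reads. Within the complex Gp5 made up 24.1% (21.3 to 27.1) of the counts in the knockout pool and 13.7% (11.1 to 16.6) in the wild-type pool, a shift that no scaling between the pools can change. The share of Gp1bb was 33.0% (29.9 to 36.2) in the knockout pool and 43.5% (39.5 to 47.5) in the wild-type pool. The shares of Gp1ba, 21.6% and 25.3%, and of Gp9, 21.3% and 17.6%, had overlapping intervals.

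Vwf, the ligand of the complex, was close to even between the pools. Vwf (ENSMUSG00000001930, chromosome 6, 125546774 to 125686679), made by endothelial cells as well as megakaryocytes, had 567 against 470 counts, or 5.33 CPM (4.90 to 5.78) against 4.35 CPM (3.97 to 4.76). The ratio of 1.22-fold (1.08 to 1.39) lay above no difference and was not called. The carrier partner gene F8, coagulation factor VIII, had 247 against 210 counts and a log2 ratio of 0.25 (-0.02 to 0.53), and Adamts13, the protease that trims von Willebrand factor, had 8 and 3 counts. Endothelial markers summed to 95.1 against 80.2 CPM over 15 genes, a 1.19-fold difference (1.15 to 1.22), and no marker was at 0. That sum was mostly Pecam1, which leukocytes also express, at 60.7 and 52.2 CPM. Of 10 markers with at least 100 counts, 3 were called higher (Emcn, Esam and Cldn5) and none lower. Among all genes with at least 100 counts 11.2% were called higher, and 23.8% of those up to the count of the most abundant member. The median log2 ratio of the markers was 0.67, and 13 of the 15 lay above no difference. Egfl7 and Mmrn2 had the lowest log2 ratios, at -0.23 and -0.07. That of Mmrn2 turned sign with TMM scaling (0.01) and with totals that leave out abundant or red cell genes (0.01 to 0.02). The part of endothelial cells in the value of Vwf was not tested.

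The remaining members were thinly counted. Treml1 (ENSMUSG00000023993, chromosome 17, 48359916 to 48367176), a TREM family receptor kept in the membrane of alpha granules, had 69 counts in the knockout pool against 14 in the wild-type pool. Its level was 0.648 CPM (0.504 to 0.820) against 0.130 CPM (0.0709 to 0.217), a 4.86-fold difference (2.79 to 9.62), which was not called because the combined count of 83 was under the minimum of 100. Gp6 (ENSMUSG00000078810, chromosome 7, 4363965 to 4397744), the collagen receptor, had 2 against 3 counts, and its ratio of 0.676-fold had an interval of 0.0565 to 5.91, so no difference was detectable at this depth. Among the neighbours of Treml1 in the TREM cluster, Treml4 was called higher at 188 against 58 counts (log2 ratio 1.71), Trem2 had 82 against 9 counts, and Trem3 (0.70), Trem1 (0.65) and the most abundant, Treml2 (-0.36), were not called.

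**Figure D2:**
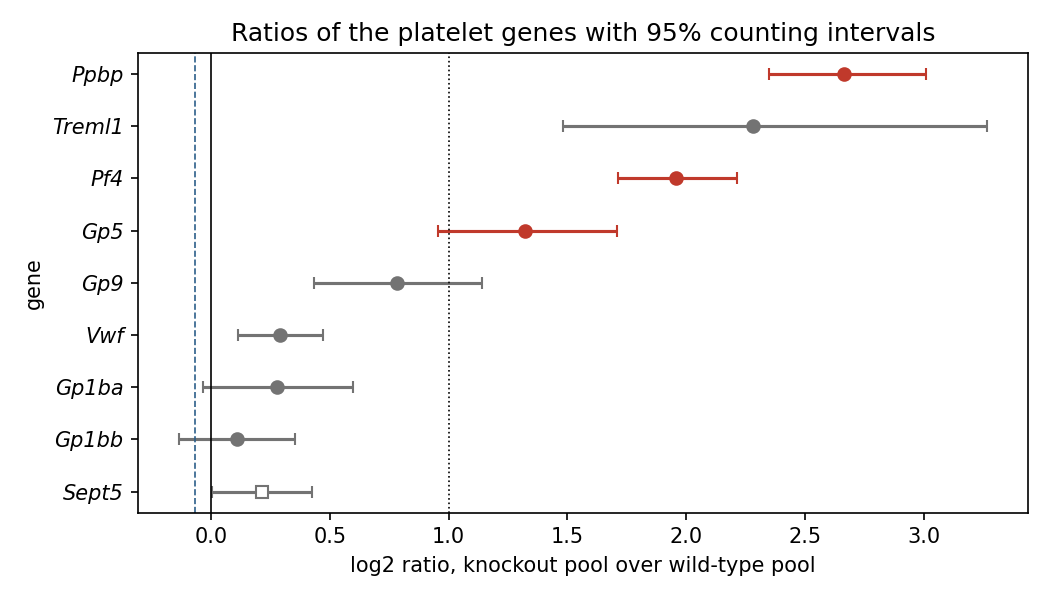
Log2 ratio of knockout over wild-type pool for 8 platelet genes (circles) and for Sept5, which overlaps Gp1bb (square), with exact 95% counting intervals; red marks called genes, the dotted line 2-fold, and the dashed line the median of all genes with at least 20 counts. Ppbp, Treml1 and Pf4 lie past 2-fold with their whole interval, Gp5 straddles it, and Gp1ba, Gp1bb and Vwf lie between 0.11 and 0.29; Gp6, with 5 counts, is left out.

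Over the list, 3 of the 7 members with at least 100 counts were called higher and none lower, against 11.2% of 13833 genes called higher and 5.36% called lower. Calls were commoner among genes of low count, and between 100 counts and the count of the most abundant member 23.8% of 4087 genes were called higher, which is the nearer background. With a minimum of 20 counts, Treml1 joined and 4 of 8 were called, against 13.6% of genes. All 8 members with at least 20 counts had a ratio above no difference, as did 45.7% of all genes with that count and 55.3% of genes in the count range of the members. The interval lay wholly above no difference for 6 of the 9 members, against 34.9% of genes with at least 20 counts, and under the 4 scalings that brought in Gp1ba it was 7 of 9, against 38.8% to 39.9%. The authors' deposited table, from a DEGseq test on the same pooled counts, held the same number, 6 of 9, as higher at an adjusted p under 0.05, against 30.4% of its genes. The median log2 ratio was 1.05 over the 8 members with at least 20 counts and -0.07 over all genes with that count. Over the 7 members with at least 100 counts it was 0.78, against 0.14 over genes in their count range.

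Summed over all 9 genes, platelet transcripts made up 25.5 CPM in the knockout pool and 12.6 CPM in the wild-type pool, from 2714 and 1365 counts. The ratio of these sums was 2.02-fold (1.89 to 2.15). The chemokines gave 44.4% (42.6 to 46.3) of the summed counts in the knockout pool and 18.8% (16.79 to 21.005) in the wild-type pool, and their own sum was 4.76-fold higher (4.16 to 5.47); without them the sum of the other 7 members was 1.38-fold higher (1.28 to 1.49). Vwf gave 34.4% (31.9 to 37.0) of the summed counts in the wild-type pool and 20.9% (19.4 to 22.5) of those in the knockout pool, and the receptor complex gave 45.5% (42.8 to 48.2) and 32.1% (30.3 to 33.8). Megakaryocytes differ in number between organs, and since the samples behind each pool are not stated, its mix of bone marrow and spleen cannot be told apart from the genotype. In pooled tissue, more megakaryocytes or platelets in the knockout pool and more RNA in each of them cannot be told apart.

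**Figure D3:**
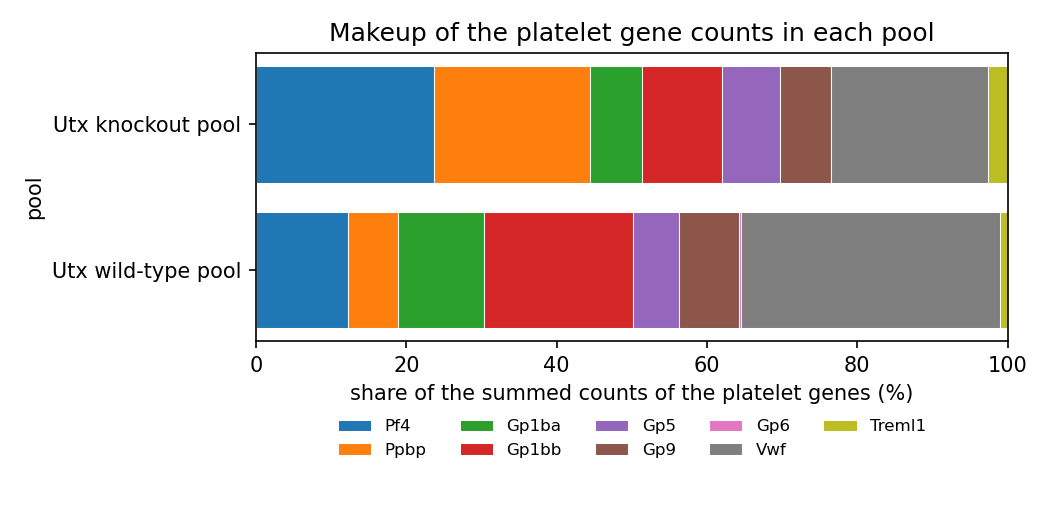
Share of each gene in the summed counts of the 9 platelet genes, in percent, for the knockout pool (2714 counts) and the wild-type pool (1365 counts). Pf4 and Ppbp together widen from 18.8% in the wild-type pool to 44.4% in the knockout pool, and the share of Vwf narrows from 34.4% to 20.9%.

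Levels can be compared between genes only per length, here as CPM per kilobase of annotated exon. In the knockout pool Pf4 stood highest at 8.35 CPM per kb, followed by Ppbp at 4.90, Gp9 at 1.97, Gp1bb at 1.29 and Gp5 at 0.898. Gp1ba at 0.650, Treml1 at 0.462 and Vwf at 0.332 CPM per kb came next, and Gp6 was last at 0.0032. In this order the intervals of Gp1ba and Treml1, and those of Treml1 and Vwf, overlapped, and the other neighbours were apart by more than counting error. In the wild-type pool Pf4 was again highest at 2.14 CPM per kb, but Gp1bb at 1.20 and Gp9 at 1.15 came before Ppbp at 0.769, then Gp1ba at 0.535, Gp5 at 0.358, Vwf at 0.271, Treml1 at 0.0924 and Gp6 at 0.0047. There Gp1bb and Gp9, Gp9 and Ppbp, Ppbp and Gp1ba, and Gp5 and Vwf overlapped in their intervals. The part of Sept5 reads in the rank of Gp1bb was not tested in either pool. Ppbp thus ranked 2nd in the knockout pool and 4th in the wild-type pool.

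Other genes of the megakaryocyte and platelet programme were also called higher in part. Of 49 such genes in 4 lists, 48 were matched and 45 had at least 100 counts. Of these, 19 were called higher, 1 was called lower and 25 were neither, against the 11.2% and 5.36% of all genes given above, and the median log2 ratio over the 48 was 0.79. In the count range of the members, where 23.8% of all genes were called higher, 14 of 21 of these genes were called higher. Those 21 genes summed to a 2.50-fold difference (2.39 to 2.62). Summed over all 48 genes the difference was 1.23-fold (1.22 to 1.24), below the 2.02-fold of the members. The granule and secreted list among them summed to 0.890 of its wild-type level (0.879 to 0.902). Most of that sum was 1 gene, Srgn, with 27967 of 45170 knockout counts and 39477 of 51483 wild-type counts. Of the 16 genes of that list 13 lay above no difference, and their median log2 ratio was 0.64. Many of the 48 genes are also expressed by red cell precursors, mast cells, macrophages or T cells. Under other scalings (TMM, median of ratios, and totals without mitochondrial and red cell genes or without the 100 most abundant genes) Clec1b, F2rl2 and Myl9, at log2 ratios of 0.94 to 0.95 here, passed 2-fold as well and 22 were called higher.

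Megakaryocyte transcription factors were all above no difference but mostly by less than 2-fold. Of 9 with at least 100 counts, 2 were called higher and none lower: Gata2, a progenitor and mast cell factor, at 3.81 against 1.38 CPM (log2 ratio 1.46, 1.19 to 1.75), and Nfe2, which drives platelet release, at 107 against 49.1 CPM (1.12, 1.08 to 1.17). Gata1, the X-linked master factor of red cells and megakaryocytes, stood at 69.4 against 46.7 CPM (0.57, 0.52 to 0.63). Mafg, the partner of Nfe2, was at 0.65, Gfi1b at 0.43 and Runx1 at 0.34, and the most abundant, Zfpm1, the cofactor of Gata1, was at 0.41.

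Platelet surface receptors went both ways. Of 12 with enough counts, 4 were called higher and 1 lower. Itga2, a collagen-binding integrin chain, had 400 against 51 counts, a 7.89-fold difference (5.94 to 10.9). Both chains of the fibrinogen receptor were called with near-equal ratios, Itgb3 at 16.0 against 7.45 CPM (log2 ratio 1.11, 0.98 to 1.23) and Itga2b at 5.89 against 2.90 CPM (1.02, 0.83 to 1.22). P2ry12, the ADP receptor, was called at 1.08 (0.73 to 1.45), while P2ry1, the other ADP receptor, was at -0.03, a sign that turned under the same scalings, and Cd36 at 0.15. F2rl3, a thrombin receptor of platelets, was called lower, with 416 against 1303 counts and a log2 ratio of -1.62 (-1.79 to -1.47). The most abundant, the ATP-gated channel gene P2rx1, was at 44.5 against 31.8 CPM.

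Granule and secreted genes included the largest ratio of the platelet lists. Of 15 with enough counts, 7 were called higher and none lower. Pdgfa, a growth factor gene, had 347 against 33 counts, a 10.5-fold difference (7.46 to 15.7). F5, coagulation factor V, was at 10.4 against 1.56 CPM (log2 ratio 2.73, 2.50 to 2.97), Thbs1, the gene of thrombospondin, at 7.46 against 1.93 CPM (1.94) and Timp3, a protease inhibitor, at 4.63 against 1.32 CPM (1.80). Clu (1.20), Sparc (1.13) and Pdgfb (1.01, on 78 against 39 counts) were also called. On the other side F13a1, the factor XIII chain that macrophages make too, was at -0.93, Srgn, the granule proteoglycan of many blood cells and the most abundant of the list, at -0.48 and Nbeal2, needed for alpha granules to form, at -0.04, whose sign turned under those scalings too.

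In the cytoskeleton and enzyme list 6 of 9 genes were called higher and none lower. Tubb1, the tubulin of the platelet marginal band, had 264 against 63 counts, a 4.23-fold difference (3.22 to 5.69). The eicosanoid enzymes were called together, Tbxas1 (log2 ratio 1.75, 1.44 to 2.08), Alox12 (1.54, 1.12 to 1.98) and Ptgs1 (1.33, 1.05 to 1.62), as were the kinase C substrate Plek (1.52) and the G protein subunit Gng11 (1.44). Myl9 was at 0.95 and Rab27b, a granule-docking GTPase, at 0.55. Fermt3, the integrin activator of all blood cells and the most abundant of the list, was at 0.11 on 144 against 134 CPM.

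**Figure D4:**
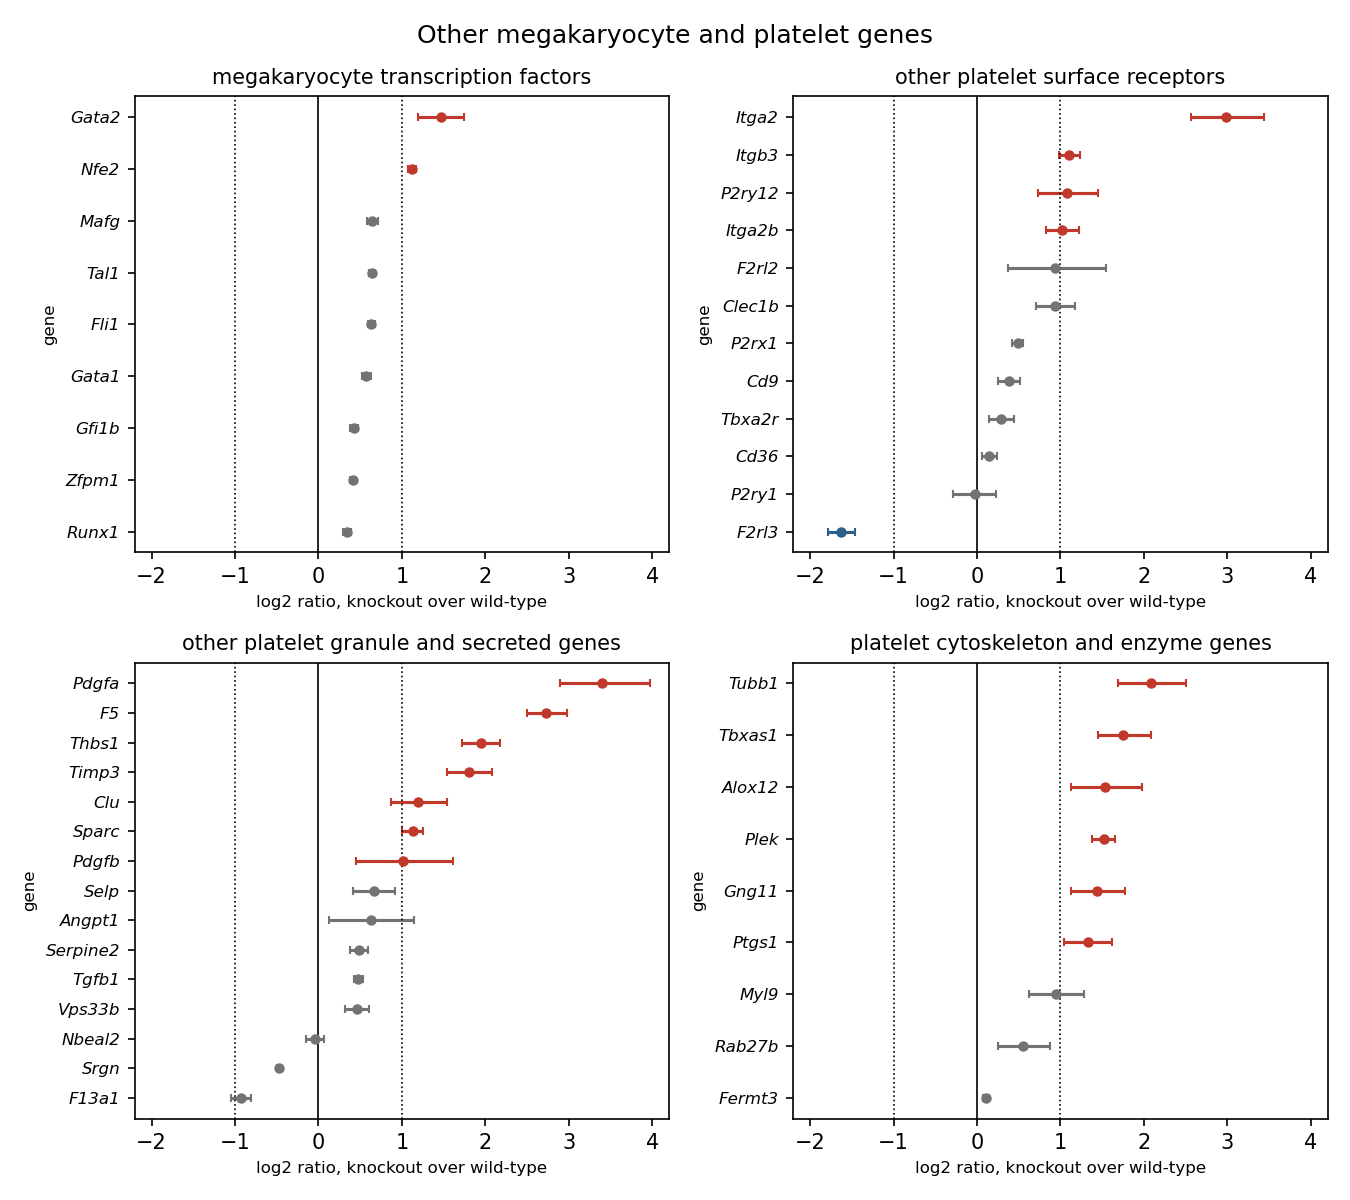
Log2 ratio of knockout over wild-type pool, with exact 95% counting intervals, for the 45 other megakaryocyte and platelet genes with at least 100 counts in 4 lists; red is called higher, blue called lower, grey not called, and dotted lines mark 2-fold. F2rl3, F13a1 and Srgn are farthest left, while Pdgfa and Itga2 are farthest right.

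The signalling partners of glycoprotein VI were measured although Gp6 itself was nearly without counts. Of 8 genes 1 was called higher, the kinase gene Syk, at 61.7 against 5.76 CPM, a 10.7-fold difference (9.87 to 11.7), and none was called lower. Lcp2 (log2 ratio 0.81), the receptor's partner chain Fcer1g (0.77) and Lyn (0.77) were higher by less than 2-fold, and the adaptor gene Lat, the most abundant, was at -0.69, Fyn at -0.28 and Vav1 at -0.16. Leukocytes and T cells use these genes as well.

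Markers of other cell types moved beside the platelet genes. Mast cell and basophil markers summed to 25.0 CPM in the knockout pool and 1.71 CPM in the wild-type pool over 5 genes, a 14.6-fold difference (12.5 to 17.0), with all 4 genes that had enough counts called higher: Prss34 (843 against 29 counts), Mcpt8 (800 against 60), Cpa3 (877 against 86) and Fcer1a (121 against 9). Macrophage markers summed to 379 against 128 CPM over 14 genes, a 2.95-fold difference (2.90 to 3.01), with 13 of 14 called higher, from Timd4 at a log2 ratio of 1.32 through Vcam1, Csf1r, Emr1, C1qb, Mrc1, Cd5l, Axl, C1qa, Cd68, C1qc and Cd14 to Marco at 2.43, and Cd163 not called at 0.74. Red cell markers, whose precursors share a progenitor with megakaryocytes, had a 1.96-fold difference (1.957 to 1.966) in their sum, close to the 2.02-fold of the platelet members, but a lower median log2 ratio, 0.55 against 1.05. Of 12 red cell genes 3 were called higher, Alas2 (1.33), Hba-a1 (1.27) and Epb4.2 (1.27), none was lower, and Epor and Rhag were at 0.14 and 0.31, while the most abundant, Hbb-b1, was at 1.00, just under 2-fold, and called under TMM, median of ratios and both reduced totals (1.07 to 1.09).

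T cell markers, by contrast, summed to 0.876 of their wild-type level (0.872 to 0.879). Of 13 genes none was called higher and Thy1 was called lower (log2 ratio -1.06, while the call ended at -0.97 to -0.99 under TMM, median of ratios and both reduced totals); Ptcra was at -0.56 and Cd247 at -0.42, and Cd8b1, Dntt and the most abundant, Tcf7, were at 0.75, 0.50 and 0.37. No marker in any of these lists was at 0 in either pool. The part of these other cell types in the ratios of the platelet genes was not tested, and a composition that differs between pools cannot be told apart here from a change within a cell type.

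**Figure D5:**
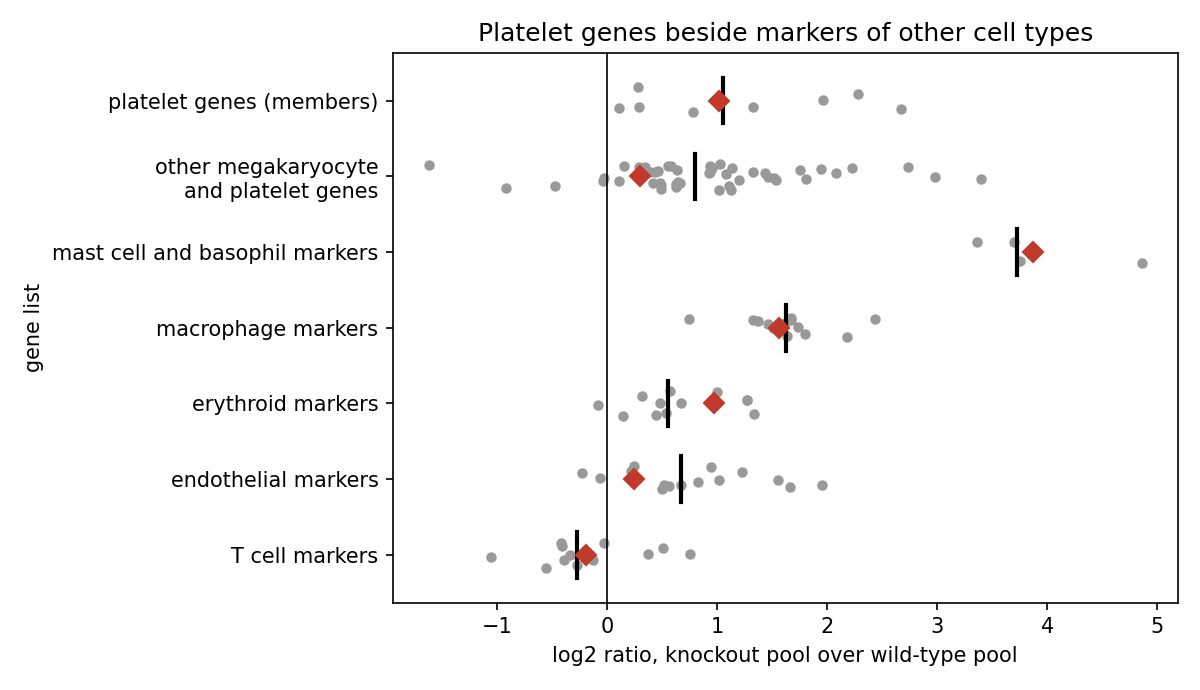
Log2 ratio of knockout over wild-type pool for each gene with at least 20 counts (grey points), the median of its list (black bar) and the ratio of the list's summed counts (red diamond), for the platelet members, the other megakaryocyte and platelet genes and the markers of 5 other cell types. Mast cell and basophil markers lie farthest right, around a summed ratio of 3.86, with macrophage markers near 1.56. The summed ratio of the platelet members is 1.01 (median 1.05) and that of red cell markers 0.97 (median 0.55). The summed ratio of the other megakaryocyte and platelet genes is 0.30 and that of endothelial markers 0.25, below their medians of 0.79 and 0.67. T cell markers lie left of 0, with a summed ratio of -0.19 and a median of -0.28.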

How the data were processed

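Poly(A)-selected, strand-marked libraries were read from 1 end for 50 bases, per the labels' protocols. CASAVA and TopHat were used with the genome build mm9, per the submitters' processing notes. How reads were assigned to genes (annotation, tool, strand) is not given in those sources. The authors deposited 1 DEGseq table with 2 columns of whole read counts, pooled over libraries of a genotype; the samples that entered each pool are not stated. The first was taken as knockout from the order in the table's title, and Kdm6a was lower in it. The table holds 0 columns of per-sample values, so no count model, replicate block or left-out sample was run. Its log2 fold changes, z score, p-values and q-values were made by the authors with DEGseq, per the file headers; only the Benjamini-Hochberg q was used.

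CPM values, log2 ratios with 0.5 counts added to each pool, and exact 95% intervals (Clopper-Pearson for ratios and shares, Poisson for levels; scipy 1.17.1) were computed with the column totals as depth. Ratios of sums, and the ratio of Gp6, carry no added count. Intervals and floors cover counting error only, and reads are not independent molecules. A median used genes with at least 20 combined counts. Of 130 listed genes outside the members, 127 were matched, by Ensembl identifier or a symbol borne by 1 row. The members and lists were chosen with earlier results of these data known. Named from each list were the 3 highest and 3 lowest ratios with at least 100 counts, every called gene and the most abundant, except for values not reported here; Gata1, Fcer1g, Trem2 and the CXC neighbours are outside that rule and were named after their values were seen. Exon lengths and overlaps came from GENCODE M21. In a test of this comparison on simulated Poisson counts (13833 genes), calls were made for 100% of the genes given a log2 change of 1.5, and the intervals held 95.3% of true ratios. The exact intervals are built for such counts, so this checks the computation only. The simulated counts held no difference between animals and no change near the 2-fold minimum, so neither was tested. The changed genes were drawn only from those with an expected count of at least 100 in the knockout pool, so recovery at lower counts was not tested. TMM factors came from edgeR 4.0.16; other alternatives are given below with their effect.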

Additional observations from a re-analysis of the deposited data

How the results depend on the processing

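No paired analysis was possible because the table holds 1 pooled column per genotype; leaving out samples was not possible for the same reason. Of the members, 3 were called higher under every scaling tried (TMM, median of ratios, upper quartile, totals without mitochondrial and red cell genes, totals without the 100 most abundant genes), with a pseudocount of 5, and without Vwf or Gp1bb. Neither Vwf nor Gp1bb was called, so leaving them out could not change the number of called members. The scalings moved log2 ratios by at most 0.09, and no member with at least 100 counts lay that close to 2-fold. The number was also 3 with the authors' adjusted p under 0.05 in place of the interval. That setting kept the 2-fold minimum, on the authors' ratio, and the minimum of 100 counts, so it is not an independent check. With a fold minimum of 1.5 or a count minimum of 20 it was 4, and with a fold minimum of 3 it was 2. Their median log2 ratio ranged from 0.78, with at least 100 counts, to 1.32, without Vwf or without Gp1bb. The log2 ratio of the summed member counts was 1.01, and 1.28 without Vwf and 1.17 without Gp1bb; the last was chosen after seeing the data. Of the other megakaryocyte and platelet genes, 18 to 27 were called higher in place of 19, and 7 with a fold minimum of 3. The log2 ratio of each member stayed within its counting interval under the 6 settings tried for it. The members with an interval wholly above no difference were 6 or 7 over the scalings, also a comparison chosen after seeing the data. The share of all genes called higher ranged from 11.2% to 12.4% over the scalings, and in the count range of the members from 23.8% to 26.2%. Scalings moved the median of all genes by at most 0.09 on the log2 scale. Genes under 100 counts, such as Treml1 and Gp6, are limited by depth.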
